A study of Mus musculus with 2 samples.

Results

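Of 43514 accessible sites that were strong in both spleen libraries, 471 (1.08%) held no footprint of either library. DNase I cuts exposed DNA in nuclei, so a peak of cuts marks open chromatin, and a footprint is a short protected stretch inside a peak, as a bound protein can leave. The 2 DNase-seq libraries, biological replicates 1 and 2 of 1 group, were made from spleens of male B6CASTF1/J mice, F1 hybrids of the C57BL/6J and CAST/EiJ strains, at an age of 10 days. The labels number the spleens as those of 2 males but give both the same donor identifier. The 471 sites were chosen by measured values: overlapping peaks of the longer deposited peak list of each library were merged into 146575 sites, of which 73150 held a peak of both libraries. A site counted as strong where its signal reached the median of the library's list in both, 0.578 in replicate 1 and 0.553 in replicate 2, and as footprint-free where no deposited footprint of either library overlapped it. Presence, signal and footprints of these sites are therefore the rule and not findings. Position, sequence and neighbours were not used by it. Sites of 1 library are not replicates and there is no second group, so no test was made. Intervals are exact binomial 95% intervals that cover counting error only, and coordinates are on mm10.

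In spleen of this age, red cell production and young B cells share the organ with macrophages and stroma. Promoters are the most accessible part of most active genes, and the transcription start site (TSS) is usually flanked by a nucleosome-free stretch with positioned nucleosomes downstream of it. Footprints within promoters often fall on sites of general factors such as NFY, NRF1, ETS and SP factors, and those within enhancers on lineage factors such as GATA and basic helix-loop-helix factors.

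Most footprint-free sites lay within 500 bp of a footprinted one, and 5 pairs of windows show what such pairs look like in sequence. Each line gives the central 150 bp of a footprint-free site or of the nearest shared strong site with a footprint, 5′ to 3′ on the plus strand of the RefSeq GRCm38 reference, with matches to the consensus sequences searched in capitals. The pairs were taken from the highest in signal rank with a neighbour within 500 bp, no repeated 32-base word and no annotated untranslated region in either window. The first 3 footprint-free sites lie within 1000 bp downstream of a TSS: in Gas5, a noncoding host gene of small nucleolar RNAs, beside the TSS of its small nucleolar RNA Gm26224, in the noncoding gene AC138790.1, and in Slc25a42, a mitochondrial coenzyme A carrier. The other two footprint-free sites lie over 1000 bp from any TSS, and their nearest ones are those of Ell, an elongation factor, and Prrc2b.
Gas5 footprint-free site, chr1:161035396-161035545: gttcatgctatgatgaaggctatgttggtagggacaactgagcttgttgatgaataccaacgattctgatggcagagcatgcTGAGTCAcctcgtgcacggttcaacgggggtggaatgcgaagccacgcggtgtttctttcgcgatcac
Gas5 footprinted neighbour, chr1:161034996-161035145: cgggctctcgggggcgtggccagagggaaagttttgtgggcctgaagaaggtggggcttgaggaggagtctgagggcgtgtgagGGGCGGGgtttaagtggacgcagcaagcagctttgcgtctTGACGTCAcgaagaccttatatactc
AC138790.1 footprint-free site, chr19:43675786-43675935: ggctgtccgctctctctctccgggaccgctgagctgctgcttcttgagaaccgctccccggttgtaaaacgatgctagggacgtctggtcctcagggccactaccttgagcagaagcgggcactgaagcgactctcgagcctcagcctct
AC138790.1 footprinted neighbour, chr19:43675356-43675505: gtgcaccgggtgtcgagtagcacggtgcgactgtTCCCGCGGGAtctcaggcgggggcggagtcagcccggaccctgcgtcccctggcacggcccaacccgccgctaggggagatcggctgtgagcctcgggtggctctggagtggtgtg
Slc25a42 footprint-free site, chr8:70211836-70211985: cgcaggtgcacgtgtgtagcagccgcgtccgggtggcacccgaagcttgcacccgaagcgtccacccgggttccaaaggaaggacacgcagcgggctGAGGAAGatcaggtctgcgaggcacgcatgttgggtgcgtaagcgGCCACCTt
Slc25a42 footprinted neighbour, chr8:70212516-70212665: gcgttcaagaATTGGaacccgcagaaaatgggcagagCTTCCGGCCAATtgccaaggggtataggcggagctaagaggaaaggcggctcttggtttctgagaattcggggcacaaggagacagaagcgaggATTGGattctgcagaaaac
Ell footprint-free site, chr8:70538246-70538395: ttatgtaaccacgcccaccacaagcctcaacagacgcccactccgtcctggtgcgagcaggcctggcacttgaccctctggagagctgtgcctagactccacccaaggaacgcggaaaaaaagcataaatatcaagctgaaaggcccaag
Ell footprinted neighbour, chr8:70538796-70538945: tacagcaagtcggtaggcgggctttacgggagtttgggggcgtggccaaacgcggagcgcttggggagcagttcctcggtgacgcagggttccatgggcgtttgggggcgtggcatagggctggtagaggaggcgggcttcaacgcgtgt
Prrc2b footprint-free site, chr2:32127786-32127935: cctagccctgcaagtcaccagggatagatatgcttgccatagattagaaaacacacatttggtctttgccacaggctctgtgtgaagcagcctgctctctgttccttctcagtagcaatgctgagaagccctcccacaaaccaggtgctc
Prrc2b footprinted neighbour, chr2:32128196-32128345: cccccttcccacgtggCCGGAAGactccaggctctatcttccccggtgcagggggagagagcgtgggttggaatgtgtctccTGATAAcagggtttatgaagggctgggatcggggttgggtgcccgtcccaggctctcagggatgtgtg

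The signal at the Gas5 site was 2.41 (replicate 1) and 1.26 (replicate 2), against 34.0 and 12.3 in its neighbour 140 bp away, which held 5 and 4 footprints. The neighbour window had a GC box and a CREB-type match, and the footprint-free window a single AP-1 type match. At AC138790.1 the site had 1.95 and 1.12, against 14.7 and 4.95 in a neighbour with 4 footprints in each library. The neighbour window had the EBF1 letters, which read on both strands there, and the footprint-free window had no match. At Slc25a42 the site had 2.13 and 1.02, against 22.9 and 6.59 in a neighbour with 11 and 12 footprints, which held 3 CCAAT boxes and an ETS match. The footprint-free window held a PU.1 type and a CTCF type match. The site near Ell had 2.07 and 1.06, against 49.8 and 18.2 in a neighbour with 6 footprints in each library. Neither Ell window had a match, so a footprinted site can also lack all letters searched. The site near Prrc2b had 1.29 and 1.49, against 6.62 and 3.19 in its neighbour, and was centred -23221 bp from the nearest TSS.

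Although strong by the rule, the 471 sites were the weak end of the strong sites. Their median signal was 1.02 in replicate 1 (range 0.578 to 3.94) and 0.695 in replicate 2 (0.553 to 2.04), against 2.54 and 1.34 in the 43043 footprinted strong sites. The signal percentile averaged over the libraries was cut into 10 steps of equal length, which hold unequal numbers of sites. The share without a footprint was 5.52% (4.74 to 6.37) in step 1, the lowest, and 1.84% (1.49 to 2.26) in step 3. It was 0.0465% in step 6, with 2 sites, and 0 of 4253 in step 10, which allows up to 0.0867%. The sites were also wide. Their median width was 360 bp (140 to 1180), against 200 bp in footprinted sites, and the strongest peak in them was 260 bp wide in replicate 1 and 300 bp in replicate 2, against 180 and 200 bp. Of sites up to 200 bp wide 0.0461% had no footprint, and of those over 400 and up to 500 bp 4.54% (3.65 to 5.57). The false discovery rate of the cut rate, a per-base measure of cut excess that the authors deposited, was below 0.001 over a median of 95.5% of the bases in replicate 1 and 95.0% in replicate 2, against 100% in footprinted sites for each library. A single peak of each library made up 433 of the sites.

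**Figure D1:**
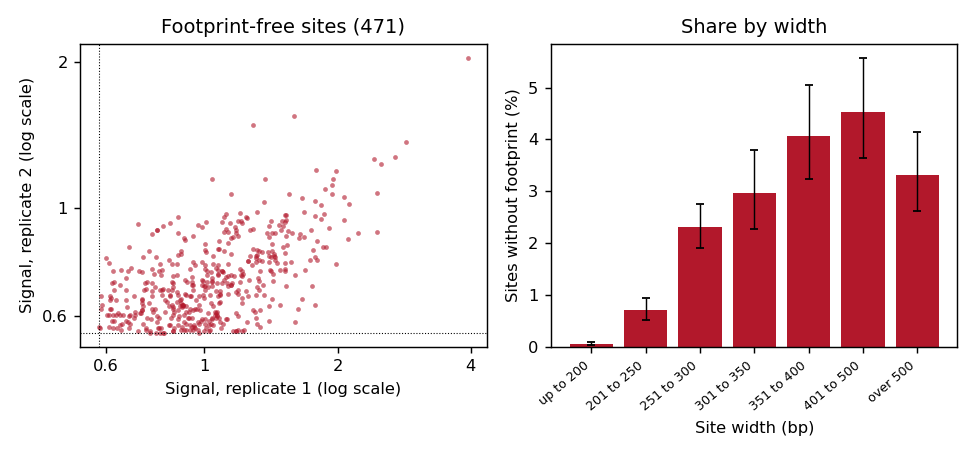
Left, signal of each of the 471 footprint-free sites in replicate 1 and replicate 2 on log axes, with dotted lines at the thresholds of 0.578 and 0.553. Most points lie near the thresholds and few exceed 2 in replicate 1. Right, percent of shared strong sites without a footprint by site width in bp, with exact 95% intervals, lowest at 0.0461% up to 200 bp and highest at 4.54% over 400 and up to 500 bp.

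Because signal and width belong to the rule or move with it, footprinted sites are also given after weighting them to the footprint-free sites' classes of signal (steps of 5 percentile points) and width (7 classes). After weighting, their median signals were 1.04 and 0.670 and their median width 360 bp. The bases with a false discovery rate below 0.001 were then 86.8% in replicate 1 and 76.5% in replicate 2. The number of cuts at each base was not analysed here, and its part in the results was not tested.

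Within 1000 bp of a TSS lay 398 of 471 (84.5%, 80.9 to 87.7), against 46.5% (46.0 to 47.0) of footprinted sites and 44.0% of these after weighting. Weighted also on the presence of a footprinted neighbour, 56.1% of footprinted sites lay that close. Of the 398, 287 (72.1%, 67.4 to 76.5) lay downstream of the nearest TSS, against 36.8% (36.1 to 37.4) of footprinted sites within 1000 bp and 56.3% after weighting. With weighting on the presence of a footprinted neighbour as well, the value was 58.3%. The 250 to 500 bp downstream held 23.4% of footprint-free sites, against 4.24% of footprinted sites and 8.06% after weighting. The 250 bp upstream of the TSS held 7.22% of footprint-free sites, against 23.5% of footprinted sites and 9.95% after weighting. Among sites that were over 250 and up to 1000 bp away, the downstream share was 74.5% (69.2 to 79.3), against 60.03% (58.8 to 61.2), or 64.0% after weighting. The 236 footprint-free sites in promoters, here 500 bp either side of a TSS, had their midpoint at a median of 222 bp downstream (quartiles -9.25 and 371 bp, negative upstream). The 16615 footprinted sites in promoters, without weighting, had it at a median of -26 bp (quartiles -75 and 21.5 bp).

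**Figure D2:**
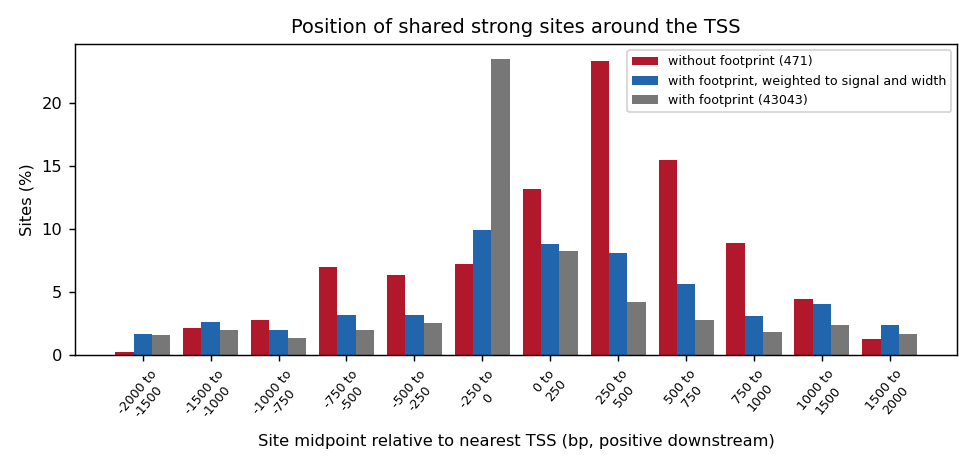
Percent of sites (y axis) by the distance of the site midpoint from the nearest TSS in bp (x axis, positive downstream) for 471 footprint-free sites, footprinted sites weighted to their signal and width, and all 43043 footprinted sites. Footprint-free sites peak at 23.4% between 250 and 500 bp downstream. All footprinted sites peak at 23.5% in the 250 bp upstream of the TSS, or 9.95% after weighting.

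By annotation, promoters held 50.1% (45.5 to 54.7) of footprint-free sites, against 38.6% (38.1 to 39.1) of footprinted sites and 30.1% after weighting. The share in footprinted sites depended on the weighting. It was 36.8% with the presence of a footprinted neighbour added, 19.1% with signal alone and 51.5% with width alone. Introns held 29.3%, against 30.9%, or 39.6% after weighting. Exons held 8.70%, against 5.73%, or 7.28% after weighting. Intergenic DNA held 11.9% (9.11 to 15.2), against 24.8% (24.4 to 25.2), or 23.0% after weighting. Regardless of the promoter class, the midpoint fell in the first intron of an annotated transcript in 317 sites (67.3%, 62.9 to 71.5), against 30.95% of footprinted sites and 44.8% after weighting. It fell in a first exon in 22.1% (18.4 to 26.1), against 14.5% and 14.6%, in coding sequence in 9.34%, against 3.86% and 6.28%, and in an untranslated region in 7.43%, against 11.4% and 8.94%. The nearest TSS belonged to a protein-coding gene in 410 sites (87.0%), against 75.7% of footprinted sites, to a long intergenic noncoding RNA in 2.55%, against 6.42%, and to a processed pseudogene in 1.06%, against 5.13%. On autosomes the share without a footprint ran between 0.552% (0.294 to 0.943) on chromosome 8 and 1.47% (1.05 to 2.02) on chromosome 1. The X chromosome, single in males, had 6 of 792 (0.758%, 0.279 to 1.64), and the Y chromosome had 0 of 11.

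A footprinted strong site stood within 500 bp of 414 footprint-free sites (87.9%, 84.6 to 90.7). Among footprinted sites 30.99% (30.6 to 31.4) had another one that close, or 44.96% after weighting. The median gap between the edges was 240 bp, against 2580 bp, or 676 bp after weighting. Between centres, the distance for the 414 had a median of 540 bp (quartiles 449 to 640). Signal was used by the rule, so the following is a description. The neighbour had the higher signal in both libraries in 398 of the 414 pairs (96.1%). Among 13339 footprinted sites with another one within 500 bp, that other one was stronger in both libraries for 46.1%. After weighting these to the signal and width of the 414, the value was 82.7%. Where a footprinted site this weak had such a neighbour, the neighbour was therefore mostly the stronger. The median ratio of neighbour to site was 10.4 in replicate 1 and 6.41 in replicate 2 for footprint-free sites, against 2.75 and 2.10 for footprinted sites after weighting. The neighbours of footprint-free sites held a median of 5 footprints in each library. The neighbours numbered 412 in all, with 327 (79.4%, 75.1 to 83.2) in promoters at a median of -32 bp from the TSS. Of the 248 footprint-free sites within 1000 bp downstream of a TSS that had such a neighbour, 212 had it on the upstream side and 200 had one whose midpoint lay within 250 bp of a TSS. On both sides, a neighbour stood within 500 bp for 53 footprint-free sites. The nearest footprint of either library was at a median of 134 bp from the site's edge, and within 20 bp in 8 sites.

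Farther from TSSs the pairing was similar: of 73 footprint-free sites over 1000 bp from any TSS, 63 had a footprinted site within 500 bp, and for 36 of these the neighbour too was over 1000 bp from a TSS. No more than 4 footprint-free sites were over 2000 bp from any footprinted strong site. These had signals of 1.13 and 0.691 (an intron on chromosome 15, nearest TSS Gm36677), 1.03 and 0.662 (an intron on chromosome 8, nearest TSS St3gal2), 0.795 and 0.766 (intergenic on chromosome 17, nearest TSS the pseudogene Gm8363), and 0.604 and 0.603 (an intron on chromosome 11, nearest TSS the small nuclear RNA gene Gm25106). Another footprint-free site lay within 2000 bp of 15.

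The 8 footprint-free sites of highest rank in promoters mostly show this layout. At Ndel1, a regulator of dynein, the site at chr11:68852501-68852800 was 390 bp downstream and had 3.94 and 2.04, against 34.6 and 13.7 in the neighbour centred at -6 bp from the TSS. It was the strongest footprint-free site in both libraries. At Iqgap1, a cytoskeletal scaffold, the site was 372 bp downstream with 2.50 and 1.23, against 18.04 and 6.47. At Arf4, a small GTPase, it was 494 bp downstream with 1.98 and 1.19, against 20.3 and 7.00. At Nt5c3, a nucleotidase that clears pyrimidines in maturing red cells, it was 183 bp downstream with 1.59 and 1.55, against 19.02 and 7.06. These 4 had the higher signal in the neighbour in both libraries.

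Not all of the 8 lay so. At Ppp2r5a, a subunit of protein phosphatase 2A, the site was 38 bp downstream with 2.70 and 1.27, against 3.22 and 1.16 in a neighbour farther downstream, so that the footprint-free site was the stronger in replicate 2. At Fbxw7, a substrate receptor of a ubiquitin ligase, it was at -85 bp from a TSS with 2.45 and 1.08, against 42.0 and 14.0 in a footprinted intron site 960 bp away. The site at the antisense gene 1700055D18Rik was 64 bp downstream of that gene and had 2.86 and 1.37, against 28.9 and 13.8 at the Zbtb5 promoter 440 bp away.

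**Figure D3:**
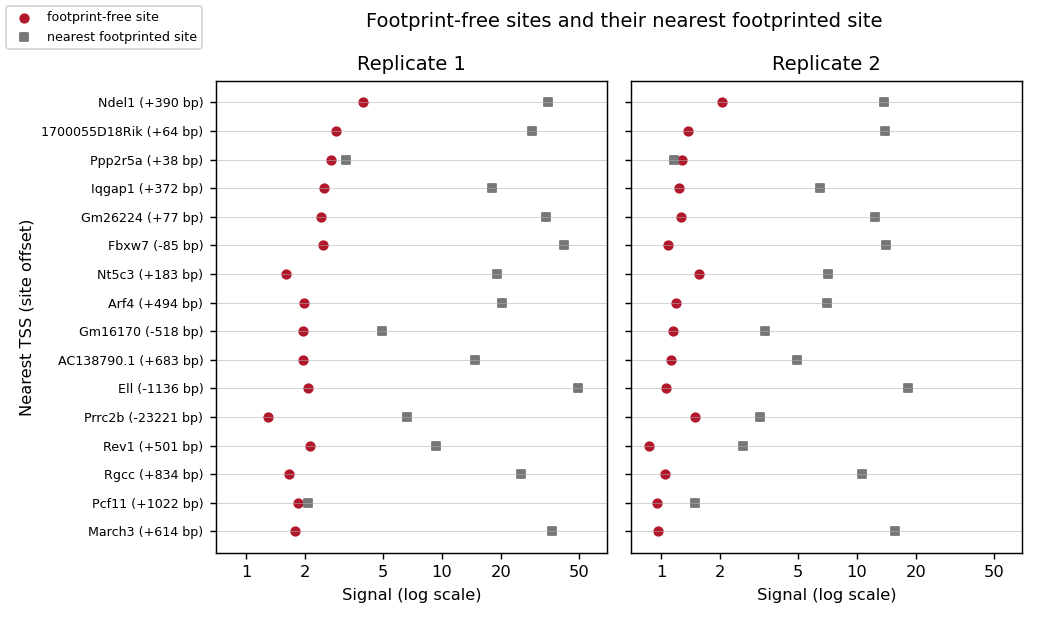
Signal in replicate 1 (left) and replicate 2 (right), on log axes, of the 8 highest-ranked footprint-free sites in promoters and the 8 outside them without repeated sequence (red circles) and of the nearest footprinted strong site (grey squares); labels give the nearest TSS and the site's offset from it in bp. The grey squares lie to the right of the red circles in both libraries except at Ppp2r5a in replicate 2, where the footprint-free site had 1.27 and its neighbour 1.16.

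Of the 8 highest outside promoters, 3 lay in exons, 3 between genes and 2 in introns. At Rev1, a DNA polymerase for damaged templates, the site was 501 bp downstream with 2.11 and 0.863, against 9.36 and 2.60 in the neighbour. At Rgcc, a cell cycle regulator, it was 834 bp downstream with 1.66 and 1.05, against 25.2 and 10.6. At March3, a ubiquitin ligase, it was 614 bp downstream with 1.78 and 0.963, against 36.6 and 15.6. At Pcf11, a transcription termination factor, signals were 1.84 and 0.9505, against 2.07 and 1.48 in a neighbour with 2 and 1 footprints, closer in replicate 1 than in replicate 2. The site upstream of the antisense gene Gm16170 (1.95 and 1.15, against 4.93 and 3.40) completed the set with AC138790.1, Ell and Prrc2b.

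The widest footprint-free site, 1180 bp at Cnnm2, a membrane protein of magnesium handling, had 1.27 and 0.900, against 41.0 and 12.5 in the promoter site 580 bp away. Next came sites at Taok3, a kinase (907 bp, 1.26 and 0.779), Tspan33, a tetraspanin (810 bp, 0.836 and 0.657), G3bp1, a stress granule protein (800 bp, 0.893 and 0.569), and Tmem263 (781 bp, 0.608 and 0.569). These 5 had their midpoint between 572 and 1146 bp downstream of the TSS. At Tspan33 the neighbour had 0.656 and 0.858, lower than the footprint-free site in replicate 1, with 4 footprints in replicate 2 and 0 in replicate 1. Just inside the thresholds were Pan2 (0.581 and 0.565), Ppp1r11 (0.578 and 0.569) and Tmem263. Just outside were footprint-free sites at Zfp606 (1.11 and 0.549), Atf6 (0.998 and 0.549) and C130036L24Rik (0.795 and 0.549), among 1005 shared footprint-free sites below a threshold.

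Sites just outside the footprint condition looked much like those inside it. The 560 strong sites with a single footprint over both libraries had median signals of 1.22 and 0.724 and a median width of 360 bp, 87.3% had a footprinted strong site within 500 bp, and 73.3% (68.9 to 77.4) of those within 1000 bp of a TSS lay downstream. With 2 footprints the downstream share was 69.2% (64.8 to 73.3), with 3 to 4 it was 59.8% (57.2 to 62.5), with 5 to 9 it was 36.8%, and with 10 or more 28.8%. The share near another footprinted site was 75.3%, 46.1%, 22.4% and 42.7% in the same classes, so it was lowest at 5 to 9. Signal changed along with the number of footprints, up to medians of 5.24 and 2.41 with 10 or more. By library, 300 strong sites had footprints of replicate 2 alone and 1638 of replicate 1 alone, which had more footprints in all (404781, against 276537 in replicate 2).

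**Figure D4:**
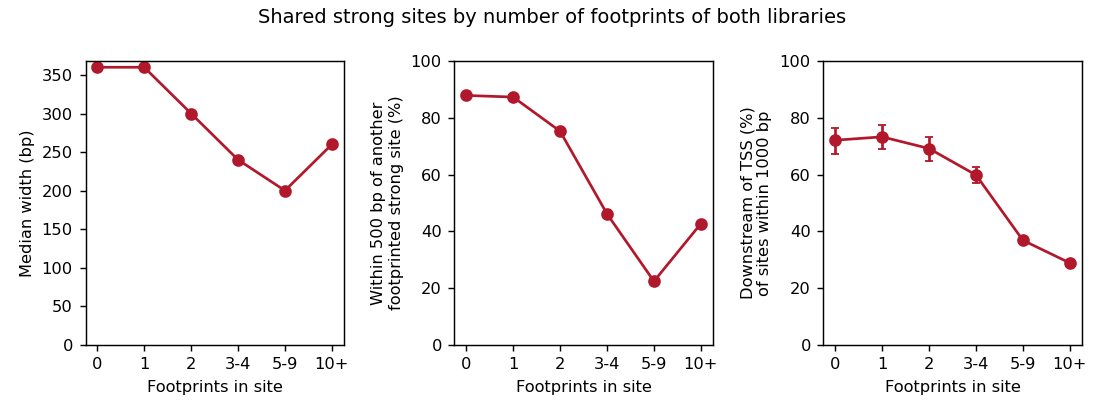
Shared strong sites by the number of footprints of both libraries in the site (x axis): median width in bp (left), percent within 500 bp of another footprinted strong site (middle) and, of sites within 1000 bp of a TSS, percent downstream with exact 95% intervals (right). Sites with 0 and 1 footprint have like values (72.1% and 73.3% downstream), and the downstream share is 28.8% at 10 or more.

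Footprint-free sites were CpG-richer than footprinted sites of like signal and width but poorer than their neighbours. The GC content of the central 300 bp had a median of 54.7%, against 54.3% in footprinted sites, 53.3% after weighting and 64.3% in the neighbours. The ratio of observed to expected CpG had a median of 0.538, against 0.392, 0.325 after weighting and 0.822 in the neighbours. Windows with at least 50% GC and a CpG ratio of at least 0.6, as in CpG islands, made up 33.8% (29.5 to 38.2), against 32.8% (32.4 to 33.3), 20.004% after weighting and 77.9% (73.6 to 81.8) in the neighbours. With weighting on the presence of a footprinted neighbour as well, the share in footprinted sites was 25.4%. Distance to a TSS was not part of these weightings. In promoters, without weighting, the share was 50.4%, against 71.6% in footprinted promoter sites. In introns, also without weighting, it was 14.5%, against 6.60%.

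Few footprint-free sites were mostly repeat. Soft-masked repeat sequence covered 50% or more of 10 footprint-free sites (2.12%, 1.02 to 3.87), against 4.72% (4.52 to 4.93) of footprinted sites and 2.17% after weighting. A 32-base word that occurs more than once in the reference began in 66 sites (14.0%, 11.0 to 17.5), against 12.7% and 15.7% after weighting. In none of the 471 did such words make up 50% of the starts, which allows up to 0.780%, against 0.860% of footprinted sites. The highest-ranked sites with a repeated word were Ppp2r5a (18.1% of starts), Nt5c3 (4.17%), A430035B10Rik (4.44%, 1.83 and 1.01), Ppp2r1b (12.5%, 1.65 and 0.883) and Mir8116 (3.94%, 1.52 and 0.938). Repeated words may make the signals of these sites less certain, which was not tested.

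The central 150 bp of footprint-free sites held few of the 18 consensus sequences searched on both strands. At least 1 was present in 54.8%, against 76.2% of footprinted sites, 69.4% after weighting, 64.2% after weighting also on position class and neighbour, 80.3% of the neighbours and 73.4% of all 73150 shared sites. The GC box of SP and KLF factors (GGGCGGG) was in 5.73% (3.81 to 8.23), against 17.7%, 8.53% after weighting, 10.8% after weighting also on position and neighbour, and 40.05% (35.3 to 44.96) of the neighbours. Within promoters alone it was in 8.05%, against 35.7%. The CCAAT box of NFY (CCAAT) was in 11.3% (8.54 to 14.5), against 19.2%, 13.4% after weighting and 27.7% of the neighbours. The NRF1 letters (GCGCNTGCG) were in 2 sites (0.425%, 0.0515 to 1.53), against 4.12%, 0.509% after weighting and 13.3% of the neighbours. The ETS letters (CCGGAAG) were in 2.34%, against 5.51%, 2.54% after weighting and 9.71% of the neighbours. The CREB letters (TGACGTCA) were in none, which allows up to 0.780%, against 1.26% and 0.318% after weighting. The YY1 letters (AAGATGGCG) were in 0.425%, against 0.850% and 0.165% after weighting.

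GATA and E-box letters were less frequent than in footprinted sites of like signal and width. GATA letters in the form AGATAA were in 3.82% (2.28 to 5.97), against 5.92% of footprinted sites and 9.40% after weighting. After weighting also on position and neighbour, the value in footprinted sites was 5.91%. The form TGATAA was in 2.55%, against 4.21%, 6.41% and 4.25% on the same 3 scales. The E-box CAGCTG was in 6.16% (4.16 to 8.72), against 11.1%, 14.1% and 11.1%, and the E-box CAGATG in 8.28% (5.95 to 11.1), against 10.9%, 12.6% and 10.4%. On the scale that includes position and neighbour, CAGCTG alone of these 4 lay outside the interval of the footprint-free sites. RUNX letters (TGTGGTT) were in 2.55% (1.32 to 4.41), against 3.58%, 4.95% and 2.87% on the same 3 scales, and CACCC letters of KLF factors (CCACACCC) in 2.12% (1.02 to 3.87), against 2.76%, 3.56% and 3.18%. Core letters of CTCF, which folds chromatin, were in 2.76% (1.48 to 4.67) as AGGGGGC, against 13.1%, 4.44% and 4.84%, and in 4.03% (2.45 to 6.23) as AGGTGGC, against 9.03%, 4.01% and 4.20%. For the other 4, values after weighting lay within the interval of the footprint-free sites: GAGGAAG of PU.1 (9.98%, against 11.9% after weighting), TGANTCA of AP-1 and NFE2 (3.40%, against 4.85%), GAAANNGAA of IRF factors (3.61%, against 4.35%) and TCCCNNGGG of EBF1 (4.25%, against 4.46%). Over whole sites the GC box was in 14.6%, against 17.8% after weighting, and CAGCTG in 17.6%, against 28.6%. The E-box forms and PU.1 letters were more frequent in all shared sites (12.3%, 12.1% and 9.03%) than GATA forms (6.17% and 4.32%). These words differ in length and base composition, so their shares do not rank the factors. A match is a description of letters, not a bound site.

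**Figure D5:**
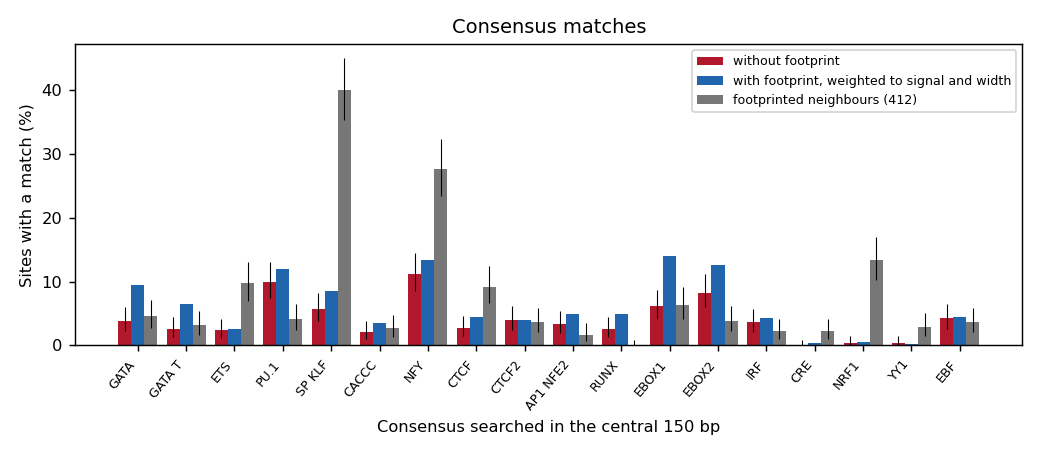
Percent of sites with a match (y axis) to each consensus searched in the central 150 bp (x axis) for footprint-free sites, footprinted sites weighted to their signal and width, and the 412 footprinted neighbours; thin lines are exact 95% intervals. The GC box (SP KLF) is in 5.73% of footprint-free sites and 40.05% of neighbours, and CAGCTG (EBOX1) in 6.16% of footprint-free sites and 14.1% of weighted footprinted sites.

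Of 21911 protein-coding genes, 342 (1.56%) had a footprint-free site with an edge within 500 bp of one of their TSSs, a wider measure than the midpoint used for promoters, and 340 of these also had a footprinted strong site there, as did 52.4% of all protein-coding genes. Among lists of defining genes of cell types, none of 16 red cell genes and none of 10 B cell genes had one, although all 16 and all 10 had a footprinted strong site by the same measure. Macrophage (0 of 10), neutrophil (0 of 10), platelet (0 of 6), stroma (0 of 7), endothelium (0 of 6), housekeeping (0 of 8) and liver control genes (0 of 6) had none, and 5, 3, 2, 3, 3, 8 and 0 of these had a footprinted one. Of 10 T cell genes 1 had a footprint-free site: Lck, a kinase of the T cell receptor, with 0.844 and 0.632, against 0.994 and 0.821 in a neighbour with 1 footprint. Beside the background of 1.56%, these counts in short lists are no result about the lists.

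Among families, 2 of 84 ribosomal protein genes had a footprint-free site, against 81 with a footprinted one. At Rps24 it had 1.43 and 0.733, against 15.1 and 9.97 in the neighbour, and at Rps14 it had 1.05 and 0.628, against 11.9 and 4.04. Of 394 zinc finger genes whose symbol is Zfp and a number, 3 had one: Zfp787 (1.10 and 0.578, against 5.09 and 1.73), Zfp639 (0.949 and 0.569, against 19.1 and 9.50, with 27.7% of its 32-base words repeated) and Zfp62 (0.698 and 0.603, against 14.4 and 4.86). Zinc finger genes with other symbols were not counted. None of 39 proteasome subunit genes and none of 67 replication histone genes had one. Over all protein-coding genes the share was 1.56%, so these counts are no result about the families. The only gene with 3 footprint-free sites was Ppox, which encodes an enzyme of heme synthesis and was singled out after its values were seen. Its 3 sites on chromosome 1 had 0.773 and 0.620, 0.761 and 0.674, and 1.07 and 0.699, against 11.2 and 4.92 at the nearest footprinted promoter site, 1060, 740 and 420 bp away. The 3 lie side by side at 171279821-171280020, 171280061-171280340 and 171280341-171280660, and the latter 2 abut. Each is less than 150 bp from the next, the distance of the merging alternative in the closing section, so they are not 3 separate regions.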

How the data were processed

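DNase-seq peaks, footprints and cut-rate false discovery rates were deposited per library on mm10 and, per the deposited text beside the files, derived from each library's own filtered alignment, without pooling and with tools not given in the sources used here. Peak signal is a depth-scaled density deposited by the authors, whose constant and depth are unknown, so signals compare within a library. The footprint score deposited by the authors was a constant and was not used. The false discovery rates of the cut rate (q-values) deposited by the authors are listed up to 0.05, and the footprints derive from them per the same text. Sequence came from the GRCm38 reference, whose chromosome lengths contain all peaks; the CAST/EiJ alleles were not examined. TSSs and genes came from GENCODE release M21.

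Sites were merged, annotated and counted with Python 3.11.15, numpy 2.4.6, pandas 2.3.3, scipy 1.17.1 and numba 0.67.0. Of 6 checks 6 passed, most of them on simulated data and the check of repeated words on a chromosome of the reference. Midpoints set the position class, and site edges the distance of a gene's TSS to a site. Footprinted sites were weighted to the footprint-free sites' classes. Replicates formed 1 group, so there was no test. The members and lists were chosen with earlier results of these data known. Named were the 8 highest-ranked sites in and outside promoters (by mean signal percentile), 5 with repeated words, the 5 widest, 3 either side of the thresholds, and genes of lists with 5 or fewer; further sites are said to be so. Neighbours, TSS side and sequence windows were examined after the data were seen. Alternatives are given in the closing section.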

Additional observations from a re-analysis of the deposited data

How the results depend on the processing

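No paired analysis was possible because both libraries belong to 1 group. The alternatives on neighbours and TSS side were chosen after seeing the data. The downstream share of sites within 1000 bp of a TSS lay between 67.9% and 75.3% in every alternative run except 1, and was 100% with the upper quartile of signal, where 6 footprint-free sites were left. With that threshold 0.0265% of strong sites had no footprint, and 100% of them lay in promoters. Of these sites 0% were repeat-masked over 50% or more of their bases, 66.7% were CpG-island-like, 33.3% had repeated 32-base words and 83.3% a neighbour. The shorter peak lists gave 69 sites, 0.234% of strong sites, 58.0% in promoters, 49.3% CpG-island-like and 84.1% with a neighbour. Merging peaks within 150 bp gave 290 sites, 0.721% of strong sites. Reciprocal overlap of 50% gave 0.909% of strong sites and 84.3% with a neighbour. Counting footprints found in both libraries alone gave 4100 sites, 9.42% of strong sites, 42.7% in promoters and 66.5% with a neighbour. Without replicate 1 or without replicate 2, each on its own peaks and footprints, the sites numbered 2558 to 3116 and made up 3.97% to 6.60% of strong sites, with 44.3% to 52.4% in promoters, 30.5% to 42.7% CpG-island-like, 10.6% to 10.7% with repeated words, 78.4% to 81.6% with a neighbour, 1.86% to 2.89% repeat-masked over 50% or more of their bases and 71.2% to 72.3% downstream. Promoter windows of 1000 and 100 bp gave 84.5% and 9.55%. Any masked base was in 62.2%, and repeated words at 50% of starts in 0%. Neighbour distances of 250 and 1000 bp gave 55.0% and 98.5%. Autosomes only, a footprint distance of 20 bp, composition of the site itself, protein-coding TSSs and leaving out repeated words moved none of the values they were applied to by more than the interval or the set limit. The cause of these shifts was not tested. The depth of each library is unknown, and its part in the absence of footprints was not tested.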
